A study of Bos taurus with 12 samples.

Results

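S100 proteins are small calcium-binding proteins with paired EF-hand motifs that act inside cells on the cytoskeleton, membranes and enzymes, and outside cells as signals of damage or infection. S100A8, S100A9 and S100A12, the calgranulins, are stored in the cytoplasm of neutrophils and are also made by monocytes and activated epithelium. S100A8 and S100A9 pair as calprotectin, which withholds zinc and manganese from microbes, and once released the calgranulins act on Toll-like receptor 4 and on the receptor for advanced glycation end products. In the uterus, neutrophils enter around estrus and after insemination, and the lining prepares during the following days, under rising progesterone, for an embryo.

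The S100 family was followed in the endometrium of Simmental heifers through the probe sets whose gene symbol was S100A8, S100A9, S100A12, S100A1, S100A2, S100A4, S100A10, S100A11, S100A13 or S100B. All 10 genes were on the array, with 13 of the 24016 probe sets tested, and S100A9, S100A1 and S100A10 each had a pair of probe sets. The tissue came from day 3 or from day 7 of the cycle. It is labelled receptive or non-receptive, and the series ties this class to whether pregnancy succeeded once embryos produced in vivo had been transferred. Each of the 4 groups (non-receptive day 3, receptive day 3, non-receptive day 7 and receptive day 7) held 3 pools of RNA, with 1 Affymetrix bovine array per pool. No treatment is labelled, and neither the heifers' age nor how many animals entered a pool is given in the sources used here. The p-values thus reflect how much pools differ, and whether an animal entered more than 1 pool is not known here.

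Values are log2 signals, so a difference of 1 is a doubling of the signal, and a level is comparable only within a probe set. A probe set was called where limma's adjusted p, Benjamini-Hochberg over all 24016 probe sets in a fit of the 4 groups, was under 0.05. Array medians lay between 6.64 and 6.76 (day 7 minus day 3 on average: -0.063). The epithelial genes EPCAM, CDH1 and MSX1 had mean levels of 13.01, 12.14 and 12.14 over the 12 pools. They belong to a list of 15 measured endometrial epithelium markers, of which 10 had a mean signal above the median of the array. In at least 1 pool 1 of the 15 was listed at 0. The level of the 3′ control probe set of actin minus that of its 5′ one, a sign of RNA length, was 0.82 to 3.11 in receptive and 0.02 to 0.93 in non-receptive pools, a mean difference of 1.0 (two-sided exact permutation test within days, p = 0.005, the smallest that 400 assignments allow, and 0.02 adjusted over 4 control genes). For GAPDH, EF1A and cyclophilin the same exact permutation test gave p = 0.925, 0.165 and 0.33.

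The day of the cycle separated the calgranulins. From day 3 to day 7, averaged over receptivity, S100A12 rose 13-fold, S100A8 rose 10.1-fold and S100A9 rose 7.32-fold or 2.88-fold, depending on the probe set. S100A4 rose 3.85-fold, and S100A2 and S100A11 rose by smaller amounts. In this contrast 7 of the 13 S100 probe sets were called, all of them higher on day 7, where 14.2% of all probe sets were called, 4.76% as higher. Of all calls, 33.5% were higher on day 7, a share that was 44.1% after quantile normalization and 50.6% with each array centred on its median, and under both scalings the same number of S100 probe sets, 7, was called. No S100 probe set was lower in a called way on day 7.

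S100A12, a zinc- and copper-binding ligand of the receptor for advanced glycation end products, had levels of 7.92, 8.25 and 8.40 in the pools of non-receptive day 3 and of 9.73, 8.49 and 6.31 in those of receptive day 3. On day 7 the levels were 12.02, 10.84 and 12.08 in non-receptive and 12.82, 12.34 and 11.21 in receptive pools. The lowest day 7 pool, the second of the non-receptive group, stood above the highest day 3 pool, the first of the receptive group, so the days did not overlap. The mean rose from 8.18 ± 1.11 to 11.88 ± 0.73 (SD, n = 6 pools a day), a log2 change of 3.70 (SE 0.54, limma adjusted p = 0.0039).

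S100A8, the smaller calprotectin subunit, had levels of 7.40, 7.67 and 7.52 in non-receptive and of 8.16, 7.34 and 5.47 in receptive pools of day 3. On day 7 it reached 10.92, 9.19 and 10.34 in non-receptive and 12.40, 10.91 and 9.78 in receptive pools. Here too every day 7 pool lay above every day 3 pool, and the pools of receptive endometrium were spread more widely than those of non-receptive endometrium on day 3 (SD 1.38 against 0.14, n = 3 each, with no test of the spread). The log2 change between days was 3.33 (SE 0.55, limma adjusted p = 0.00591).

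S100A9, the calprotectin subunit with a longer tail that binds S100A8, was measured by 2 probe sets, called brighter and dimmer here by their mean signal. The dimmer one gave 5.27, 5.36 and 4.93 in non-receptive and 6.42, 5.22 and 2.97 in receptive pools of day 3. It gave 8.27, 6.38 and 7.42 in non-receptive and 10, 8.33 and 7.00 in receptive pools of day 7. One day 7 pool, the second non-receptive one, lay just under the highest day 3 pool, and the remaining 5 lay above all of day 3. The brighter one gave 6.76, 6.78 and 6.97 followed by 7.09, 7.07 and 6.11 on day 3, and 8.34, 7.45 and 8.0 followed by 9.73, 8.63 and 7.80 on day 7, non-receptive pools first. By the brighter probe set the days did not overlap. The log2 changes were 2.87 by the dimmer (SE 0.65, limma adjusted p = 0.0194) and 1.53 by the brighter probe set (SE 0.32, limma adjusted p = 0.0141), so the probe sets differed in the size of the rise and not in its direction.

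**Figure D1:**
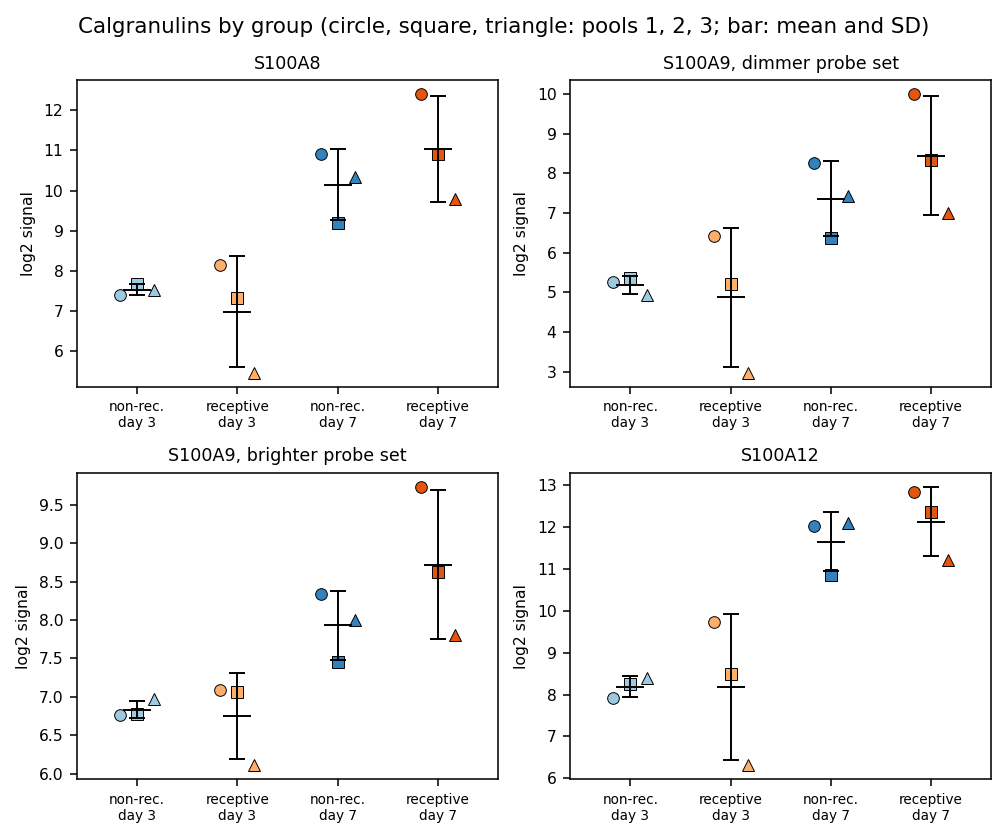
log2 signal of the 4 calgranulin probe sets (vertical axes, each with its own range that does not start at 0) in the 4 groups, with 1 point per pool (circle, square and triangle for pools 1, 2 and 3) and the mean and SD of 3 pools as bars. The pools of day 7 lie above those of day 3 except for the second non-receptive pool of the dimmer S100A9 probe set, and in receptive endometrium pool 1 is the highest and pool 3 the lowest on both days.

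The calgranulins had the larger medians of change, with ranges that overlapped those of the other members. Their 4 probe sets were all called, with log2 changes of 1.53 to 3.70 and a median of 3.10, whereas 3 of the 9 probe sets of the other members were called, with changes of -0.34 to 1.94, that of S100A4 above the lowest calgranulin value, and a median of 0.40. The median over all probe sets was -0.05. The pooled SD within groups was 0.61 to 1.25 for the calgranulins and 0.14 to 0.65 for the other members, of which S100B was the highest, against a median of 0.25 over all probe sets.

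Among the other members, S100A4, which binds non-muscle myosin and is made by fibroblasts, leukocytes and motile cells, showed the strongest rise. Its levels on day 3 were 10.21, 10.42 and 11.12 in non-receptive and 11.44, 10.14 and 11.30 in receptive pools. On day 7 they were 12.58, 13.01 and 12.55 in non-receptive and 12.67, 12.91 and 12.57 in receptive pools. The 6 pools of day 7 lay close together (12.71 ± 0.20, SD, n = 6) and all above those of day 3 (10.77 ± 0.58), and the log2 change was 1.94 (SE 0.24, limma adjusted p = 0.00248). The rise of S100A4 went with a fall of stromal fibroblast markers, listed below, and the part of cell composition in it was not tested.

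S100A2, a member typical of epithelia, was at 12.16, 12.13 and 12.72 in non-receptive and at 12.70, 12.35 and 12.77 in receptive pools of day 3. On day 7 it was at 12.89, 13.09 and 13.02 in non-receptive and at 13.24, 13.24 and 12.88 in receptive pools. The days were separated by a narrow margin, and the log2 change was 0.59 (SE 0.13, limma adjusted p = 0.0185). Without the first non-receptive pool of day 3 the adjusted p was 0.0515.

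The annexin partners S100A10 and S100A11 are neighbours on the chromosome and gave smaller differences. S100A11, the partner of annexin A1, was at 12.26, 12.47 and 12.27 in non-receptive and at 11.98, 12.14 and 12.29 in receptive pools of day 3. On day 7 it was at 12.44, 12.75 and 12.65 in non-receptive and at 12.40, 12.82 and 12.74 in receptive pools. Only a small overlap remained between the days, at the first pools of day 7 and the second non-receptive pool of day 3. The log2 change was 0.40 (SE 0.10, limma adjusted p = 0.0312), and when the pools were left out in turn, 4 of 12 fits called it, the adjusted p reaching 0.078 without the first non-receptive pool of day 3. The call was kept without non-receptive pool 2 or receptive pool 3 of day 3 and without the first non-receptive or first receptive pool of day 7, and lost without any of the other 8.

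S100A10, which joins annexin A2 at the cell membrane and presents plasminogen, was not called by either probe set. The brighter one ranged from 11.01 to 12.13 on day 3 and from 12.08 to 12.32 on day 7, a log2 change of 0.53 (SE 0.21, limma adjusted p = 0.124). The dimmer one ranged from 9.58 to 10.72 and from 10.68 to 11.24, a log2 change of 0.70 (SE 0.24, limma adjusted p = 0.0794). Both probe sets were widely spread on day 3 and narrow on day 7, with SDs of 0.50 and 0.54 on the earlier and 0.09 and 0.26 on the later day (n = 6 each, with no test of the spread).

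The remaining members were not called in any contrast. S100A13, which binds copper and takes part in the release of FGF1, ranged from 8.31 to 9.79 on day 3 and from 8.73 to 9.38 on day 7 (log2 change 0.07, 95% confidence interval -0.40 to 0.54). S100B, the glial member of the family, ranged from 7.70 to 8.51 on day 3 and from 6.99 to 8.69 on day 7 (log2 change -0.34, interval -1.11 to 0.42). On day 7 it was high in the first pool of both groups, at 8.64 and 8.69, and between 6.99 and 7.41 in the other 4 pools. The probe sets of S100A1, the member best known from heart muscle, gave changes of opposite sign, -0.21 (interval -0.42 to 0.00) for the brighter and 0.18 (interval -0.15 to 0.51) for the dimmer one. Their deviations from the group means had a correlation of 0.16 over 12 pools, against 0.92 for the pair of S100A9 and 0.92 for the pair of S100A10, so no direction is given for S100A1.

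**Figure D2:**
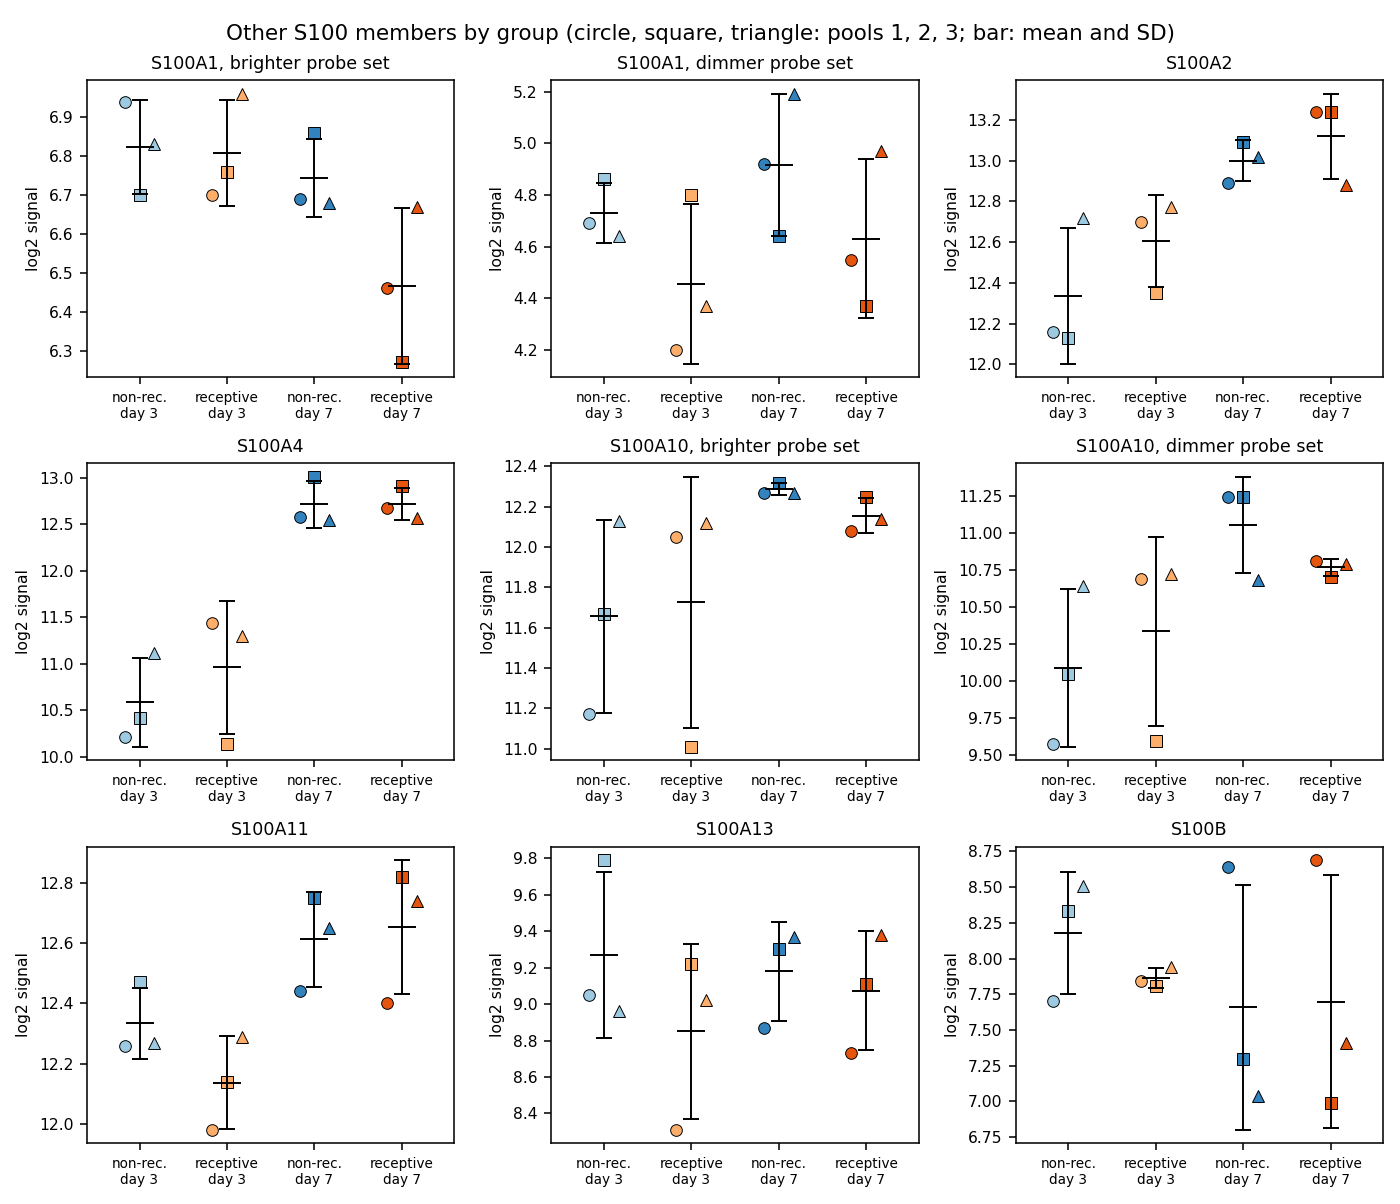
log2 signal of the 9 probe sets of the other members (vertical axes, each with its own range that does not start at 0) in the 4 groups, with 1 point per pool and the mean and SD of 3 pools as bars. S100A4 and S100A2 separate the days, S100A10 is spread on day 3 and narrow on day 7, and S100B has 1 high pool in each group of day 7.

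Counted without a model, the pools of the 2 days did not overlap for 5 of the 13 S100 probe sets, those of S100A8, S100A12, S100A2 and S100A4 and the brighter one of S100A9, where 7.72% of all probe sets did not overlap. All 5 were higher on day 7.

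Whether the rise between the days occurred in both classes of endometrium was read within each. In receptive endometrium 3 of the 13 probe sets were called, where 1.96% of all probe sets were called, all 3 of them higher on day 7. S100A8 changed by 4.04 (SE 0.78, limma adjusted p = 0.0374), S100A12 by 3.95 (SE 0.76, adjusted p = 0.0376) and S100A4 by 1.76 (SE 0.34, adjusted p = 0.0389). The values for S100A9 were 3.57 by the dimmer (adjusted p = 0.0732) and 1.96 by the brighter probe set (adjusted p = 0.0569). In non-receptive endometrium 2 were called, where 2.48% of all probe sets were called, S100A4 with a change of 2.13 (SE 0.34, adjusted p = 0.0194) and S100A12 with a change of 3.46 (SE 0.76, adjusted p = 0.0484). S100A8 had a value of 2.62 there (SE 0.78, adjusted p = 0.102), and S100A9 had values of 2.17 (adjusted p = 0.222) and 1.09 (adjusted p = 0.209) by the same probe sets.

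These calls within a class lay near the threshold. In receptive endometrium none of the 13 was called after leaving out non-receptive pool 1 or 2 or receptive pool 1 or 3 of day 3, the first non-receptive pool of day 7, or any receptive pool of day 7, and 1 was called without the second receptive pool of day 3. In non-receptive endometrium none was called without the first or second non-receptive pool of day 3 or the first non-receptive pool of day 7, and 1 was called without the second receptive pool of day 3, non-receptive pool 2 or 3 of day 7 or any receptive pool of day 7. With only the 2 groups compared in the fit, none was called in either class. In both classes the pools of the 2 days did not overlap for 8 of the 13 probe sets, among them all 4 of the calgranulins, S100A2 and S100A4, where 25.2% of all probe sets did not overlap in receptive and 25.9% in non-receptive endometrium.

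**Figure D3:**
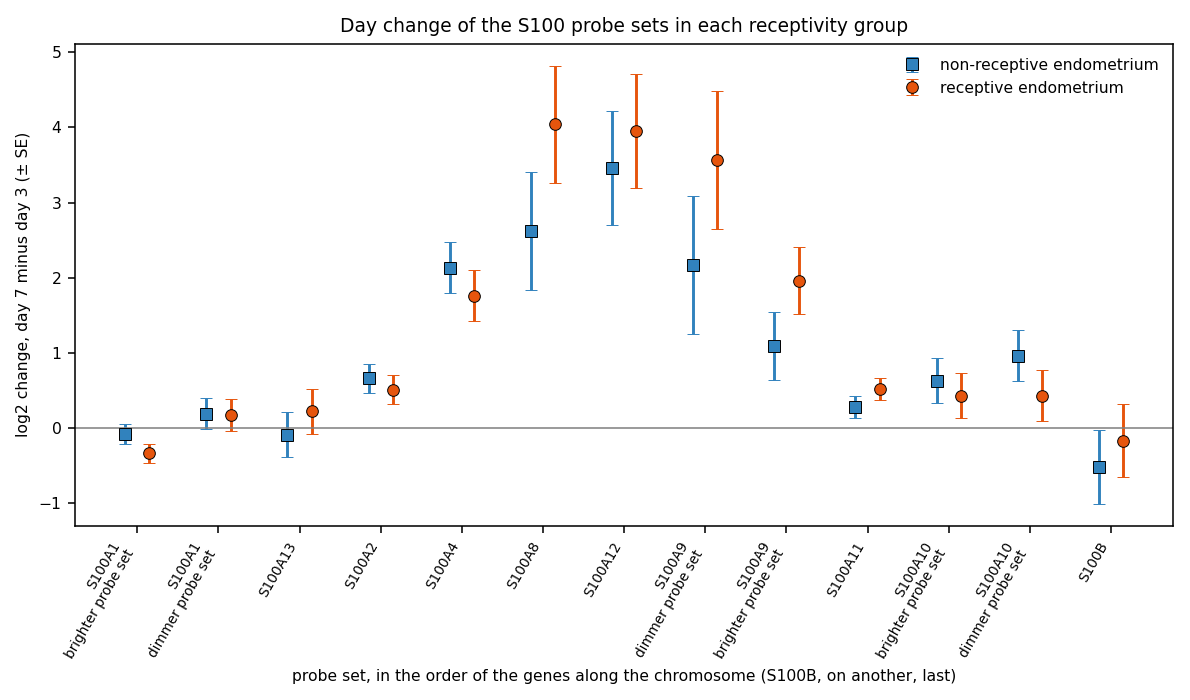
log2 change from day 3 to day 7 (vertical axis, ± SE of the limma fit) of the 13 S100 probe sets in non-receptive (squares) and receptive (circles) endometrium, ordered as the genes lie along the chromosome. The calgranulins and S100A4 carry the largest changes in both classes, and the values of S100B, -0.52 in non-receptive and -0.17 in receptive endometrium, lie below 0.

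The difference between the day changes of receptive and non-receptive endometrium was tested directly and called for 0 of the 13 probe sets, where 0% of all probe sets were called. None of the 13 had an unadjusted p under 0.05 in this limma contrast. Of all 24016 probe sets 813 had one, too few for 0 of 13 to stand out. The day change was larger in receptive endometrium by 1.42 for S100A8 (95% confidence interval -1.03 to 3.87), by 1.40 and 0.87 for the probe sets of S100A9 (intervals -1.51 to 4.32 and -0.56 to 2.30) and by 0.49 for S100A12 (interval -1.91 to 2.89), each with an adjusted p of 0.999. Each of these intervals held 0 and reached further toward a larger rise in receptive endometrium, so 12 pools could not show whether the rise of the calgranulins differs with receptivity.

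Receptive and non-receptive endometrium were then compared on the same day. On day 3 no S100 probe set was called, and none of all probe sets but 3, or 0.0125%, was. The differences ran from -0.54 to 0.38, and none of the 13 separated the pools, where 10.8% of all probe sets did. None had an unadjusted limma p under 0.05, where 1264 of all 24016 probe sets had one. S100A8 gave -0.54 (interval -2.27 to 1.19), the S100A9 probe sets -0.32 and -0.08, and S100A12 -0.01. These signs rested on the third receptive pool, the lowest of day 3 in all 4 calgranulin probe sets: without it the differences were 0.22, 0.63, 0.24 and 0.92 in the same order. For S100A12 the difference was also 0.02 without pool 2 and 0.09 without pool 3 of the non-receptive group.

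On day 7 the calgranulins had higher means in receptive endometrium, but the pools of the classes overlapped and every interval held 0. No S100 probe set was called, where 0% of all probe sets were called. None of the 13 had an unadjusted limma p under 0.05, where 1396 of all 24016 probe sets had one. S100A8 differed by 0.88 (SE 0.78, interval -0.85 to 2.61, limma adjusted p = 0.868), S100A9 by 1.09 for the dimmer (SE 0.92, adjusted p = 0.865) and 0.79 for the brighter probe set (SE 0.45, adjusted p = 0.823), and S100A12 by 0.48 (SE 0.76, adjusted p = 0.923). In S100A8, both probe sets of S100A9 and S100A12 the first receptive pool was the highest and the third receptive pool lay below the first non-receptive one. Pools of the 2 classes did not overlap for 2 of the 13 probe sets, where 9.23% of all probe sets did not. These were the brighter probe set of S100A1 (difference -0.28, interval -0.57 to 0.02) and the brighter one of S100A10 (difference -0.13, interval -0.80 to 0.54), both lower in receptive pools. Averaged over both days, no S100 probe set was called, where 0.00416% of all probe sets were called, and the differences ran from -0.28 to 0.38. The 3′ to 5′ gap of actin moved with receptivity, as given above, and its part in these differences was not tested.

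Within groups, the pools deviated together in 2 sets of members and in a further pair. The deviations from the group means, with 1 probe set a gene over 12 pools, had a correlation of 0.95 for S100A8 with S100A9, 0.93 for S100A8 with S100A12 and 0.80 for S100A9 with S100A12. They had a correlation of 0.93 for S100A4 with S100A10, 0.84 for S100A2 with S100A4 and 0.76 for S100A2 with S100A10. Between these sets S100A8 and S100A4 had a correlation of -0.14. The further pair, S100A11 and S100A13, had a correlation of 0.79. S100A11 deviated against the calgranulins, with a correlation of -0.79 with S100A8, and so did S100A1 (-0.67) and S100A13 (-0.56). All values come from the same 12 arrays and are given as a description.

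The first set varied most in receptive pools 1 and 3 of both days. The mean deviation of S100A8, S100A9 and S100A12 was 1.02 in the first and -1.34 in the third receptive pool of day 3, and 1.03 and -1.03 in receptive pools 1 and 3 of day 7. In non-receptive endometrium it lay between -0.16 and 0.11 on day 3 and between -0.75 and 0.52 on day 7, the lowest in pool 2. The second set varied mainly on day 3, where the mean deviation of S100A2, S100A4 and S100A10 lay between -0.60 and 0.46, and on day 7 it lay between -0.13 and 0.14. The first receptive pool of day 3 also had the largest actin gap, 3.11; without it 6 of the 13 S100 probe sets were called between the days. Over 12 pools the deviations of the gap had a correlation of 0.49 with those of the calgranulin mean (0.56 without the 2 extreme pools) and of 0.63 with those of the mean of S100A2, S100A4 and S100A10 (0.37 without the 2 extreme pools). Between the days the gap differed by -0.62, day 7 minus day 3 (two-sided exact permutation test, p = 0.065, adjusted p = 0.26). Its part in the day changes and in the shared deviations was not tested.

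**Figure D4:**
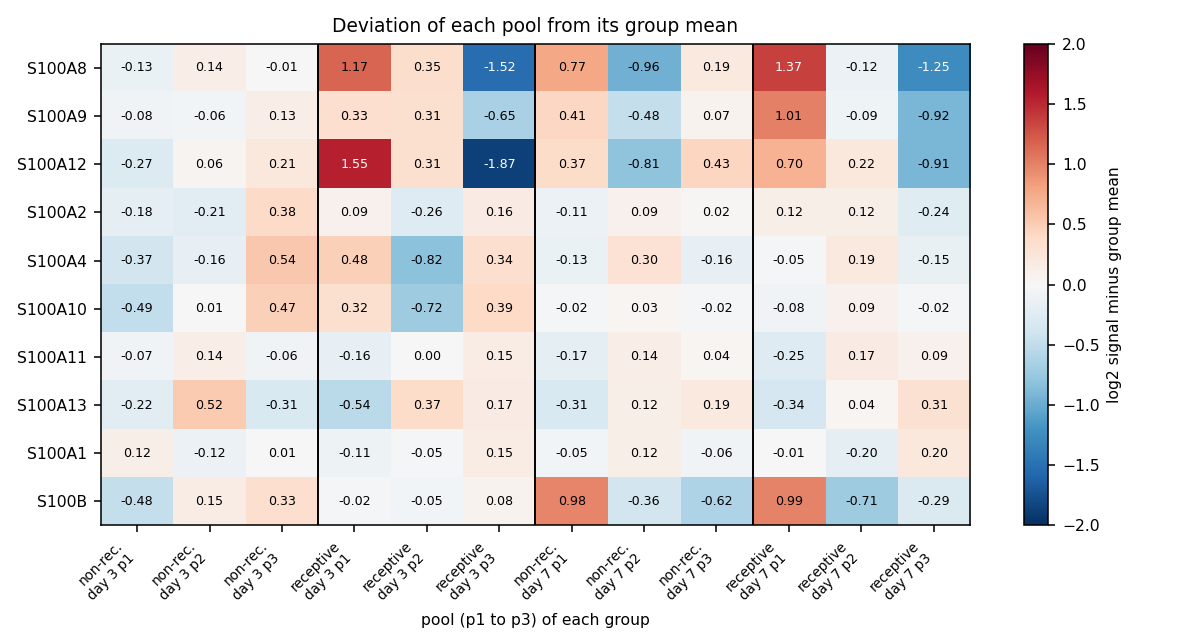
Deviation of each pool from the mean of its group, in log2 signal, for 1 probe set of each of the 10 genes (rows) in the 12 pools (columns), red above and blue below the mean. S100A8, S100A9 and S100A12 share their sign in most pools, with values from -1.87 to 1.55, and S100A2, S100A4 and S100A10 form another set that varies on day 3.

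The genes whose deviations were most like the calgranulin mean, of 7901 genes with a mean signal of at least 5, were CDC42SE1 (Pearson correlation 0.92 over 12 pools), PPA1 (0.90), XDH (0.90), BOLA-DQA2 (0.90), ANKH (0.88), PTPN5 (0.88), MAP2K3 (0.88) and CAPZA1 (0.88). After leaving out the 2 pools farthest from the median of the calgranulin mean, the correlations were 0.70 to 0.86. Of these 8 genes only BOLA-DQA2, a class II antigen-presenting chain, was called between the days, and it was lower on day 7 (log2 change -1.13, SE 0.19, limma adjusted p = 0.00624), opposite to the calgranulins.

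By position, 9 of the 10 members lie on 1 chromosome of the RefSeq annotation (assembly ARS-UCD2.0, used here for gene order only), and S100B lies on another. The calgranulins are adjacent, in the order S100A8, S100A12 and S100A9. Of the 14 S100 genes between S100A1 and S100A10, 12 had a probe set here, and in gene order their log2 changes from day 3 to day 7, each with the brighter probe set, were -0.21 (S100A1), 0.07 (S100A13), 0.08 (S100A14), -0.26 (S100A16), 0.59 (S100A2), 1.94 (S100A4), 0.14 (S100A7), 3.33 (S100A8), 3.70 (S100A12), 1.53 (S100A9), 0.40 (S100A11) and 0.53 (S100A10). The 6 called genes thus lay between others that were not called, S100A7 among them. None of the 54 other genes of this stretch had a probe set with exactly 1 symbol that matched it.

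Of the S100 genes outside the member list, 5 of 19 had a probe set. S100G, a calcium buffer of uterine and intestinal epithelium, rose from 12.55 ± 0.32 to 13.21 ± 0.12 (SD, n = 6 pools a day), a log2 change of 0.66 (limma adjusted p = 0.0172). S100A16 gave -0.26 (adjusted p = 0.068), S100A7, known as psoriasin, 0.14 (0.388), S100A14 0.08 (0.74) and S100PBP, which encodes an S100-binding protein, -0.02 (0.943).

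Of 13 measured receptors and adaptors of extracellular S100 proteins, none was called as higher and 3 as lower on day 7, where 4.76% of all probe sets were called as higher and 9.44% as lower. AGER, the receptor for advanced glycation end products, fell by 0.90 on the log2 scale (limma adjusted p = 0.0217), the adhesion molecule MCAM fell by 0.62 (adjusted p = 0.00611) and the heparan sulfate proteoglycan HSPG2 fell by 0.81 (adjusted p = 0.0124). The AGER probe set was dim, with means of 4.95 on day 3 and 4.05 on day 7, below the array medians. Receptive minus non-receptive, AGER differed by -0.10 on day 3 and by 0.81 on day 7 (limma adjusted p = 0.986 and 0.821). TLR4 had a value of 0.35 (adjusted p = 0.133) and its adaptor MYD88 of 0.39 (adjusted p = 0.0813). The co-receptor CD14 had a value of 0.93 (adjusted p = 0.147) and the scavenger receptor CD36 of 0.46 (adjusted p = 0.122), both named after their values were seen. The median change of the list was -0.02, against -0.05 over all probe sets.

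Of 26 measured binding partners of S100 proteins, inside the cell, at its surface or secreted, 1 was called as higher and 3 as lower, near the share of 14.2% of all probe sets called in either direction, and the median change was 0.01. ANXA1, the partner of S100A11, rose by 0.37 (limma adjusted p = 0.0389), from 12.32 ± 0.17 to 12.69 ± 0.14 (SD, n = 6). ANXA2, the partner of S100A10, had a change of 0.01 (adjusted p = 0.957). The S100A6-binding CACYBP fell by 0.45 (adjusted p = 0.00491) and the tubulin gene TUBB by 0.92 (adjusted p = 0.0224). MYH10, a non-muscle myosin, fell by 0.45 (adjusted p = 0.039). The urokinase PLAU had a value of 1.24 (adjusted p = 0.0592) and its receptor PLAUR of 0.79 (adjusted p = 0.342), both named after their values were seen.

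Of 25 measured cytokines and transcription factors known to induce calgranulins, 2 were called as higher and 2 as lower. This was near the share of 14.2% of all probe sets called in either direction, and the median change of the list was 0.25. CSF3, the granulocyte growth factor, rose by 1.38 (limma adjusted p = 0.0209) and KLF4, a factor of epithelial and myeloid differentiation, by 0.39 (adjusted p = 0.0464). JUN fell by 0.90 (adjusted p = 0.00266) and JUND by 0.45 (adjusted p = 0.0207). CEBPB, an activator of the calgranulin genes in myeloid cells, had a change of 0.28 (adjusted p = 0.308). Of 11 genes of the phagocyte NADPH oxidase and arachidonate metabolism, which calprotectin serves, 1 was called, where 14.2% of all probe sets were called. This was CYBB, the catalytic subunit, which rose by 1.1 (adjusted p = 0.0302), and the median change of the 11 was -0.09. Of 13 metal-sequestering defence proteins, 1 was called as higher and 1 as lower, also near the share of all probe sets. The phagosomal metal pump SLC11A1 rose by 2.26 (adjusted p = 0.0435) and its relative SLC11A2 fell by 0.87 (adjusted p = 0.0075). Lactoferrin, LTF, had a change of -0.01 (adjusted p = 0.958). Of 4 measured epidermal differentiation genes, 1 was called, where 4.76% of all probe sets were called as higher: TGM1 rose by 0.98 (adjusted p = 0.0327).

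Markers of other cells were read between the same days. Of 21 measured neutrophil markers, 5 were called as higher on day 7 and none as lower. Over all probe sets, 4.76% were called as higher and 9.44% as lower. The median change of these markers was 0.30, with 13 of the 21 changes above 0. The log2 of their summed signal was 9.87 to 10.46 in non-receptive and 9.81 to 10.50 in receptive pools of day 3, and 11.16 to 12.35 and 11.38 to 13.64 on day 7. BPI, a bactericidal granule protein, rose by 2.38 (limma adjusted p = 0.00164), the lysozyme LYZ2 by 3.36 (adjusted p = 0.00819) and the chemokine CXCL8 by 3.04 (adjusted p = 0.0155). MMP9 was listed at 0 in 3 pools and had a mean level of 1.07 on day 3 and 5.86 on day 7 (adjusted p = 0.00426). TREM1, named here because it completes the 5, rose by 0.94 (adjusted p = 0.0361). The granule genes MPO and ELANE, named outside the rule of smallest p, were not called. Their mean levels, 3.75 and 4.28 in the earlier pools and 4.06 and 3.91 in the later ones, lay below the array medians. Of the 21 markers, 4 had a mean signal above the median of the array. In bulk tissue fewer cells of a type and less RNA per cell cannot be told apart, and the part of neutrophils in the calgranulin levels was not tested.

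Pool by pool the neutrophil list was set beside the calgranulins by its summed signal and by its mean score, the mean over its genes of the deviation from each gene's mean. In receptive endometrium of day 7 the summed neutrophil signal was 13.64, 11.38 and 11.77 in pools 1, 2 and 3 and the mean score 1.07, 0.43 and 0.03, where the calgranulin mean deviated by 1.03, 0.00 and -1.03. The score fell in the same order as the calgranulins in that group, and the summed signal, which the brightest genes carry, was lowest in pool 2. In receptive endometrium of day 3 the score was -0.63, -0.31 and -0.31, where the calgranulin mean deviated by 1.02, 0.33 and -1.34. The pool highest in calgranulins thus had the lowest score of that group. The score ordered the pools as the calgranulin mean did in non-receptive endometrium of day 7, and did not in that of day 3. Over 12 pools the deviations of the calgranulin mean and of the mean of the neutrophil list had a correlation of 0.52 (0.59 without the 2 extreme pools).

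Of 11 monocyte and macrophage markers, 1 was called, CD68, with a rise of 2.17 (limma adjusted p = 0.0103), and 6 of the 11 changes were above 0. Over all probe sets, 4.76% were called as higher and 9.44% as lower. The range of the summed macrophage signal was 10.74 to 11.39 on day 3 and 10.13 to 12.00 on day 7. Of 12 squamous epithelium markers, 5 were called as higher, KRT17 (2.37, adjusted p = 0.00224), KRT5 (3.42, adjusted p = 0.00582), KRT15 (2.22, adjusted p = 0.00977), KRT14 (0.74, adjusted p = 0.0158) and LYPD3 (0.57, adjusted p = 0.0226), the last named because it completes the 5. The log2 of the summed squamous signal was 9.71 to 10.07 on day 3 and 10.43 to 11.83 on day 7. It was 11.45 to 11.83 in non-receptive and 10.43 to 11.58 in receptive pools of day 7, and was lowest of that day in the first receptive pool, where S100A8 was highest. On day 3 the first receptive pool had both the highest summed squamous signal, 10.07, and the highest S100A8 level, 8.16. Among 15 endometrial epithelium markers, SERPINA14 was called as higher and ESR1 as lower, and the summed signal was 15.02 to 15.31 on day 3 and 14.91 to 15.36 on day 7.

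**Figure D5:**
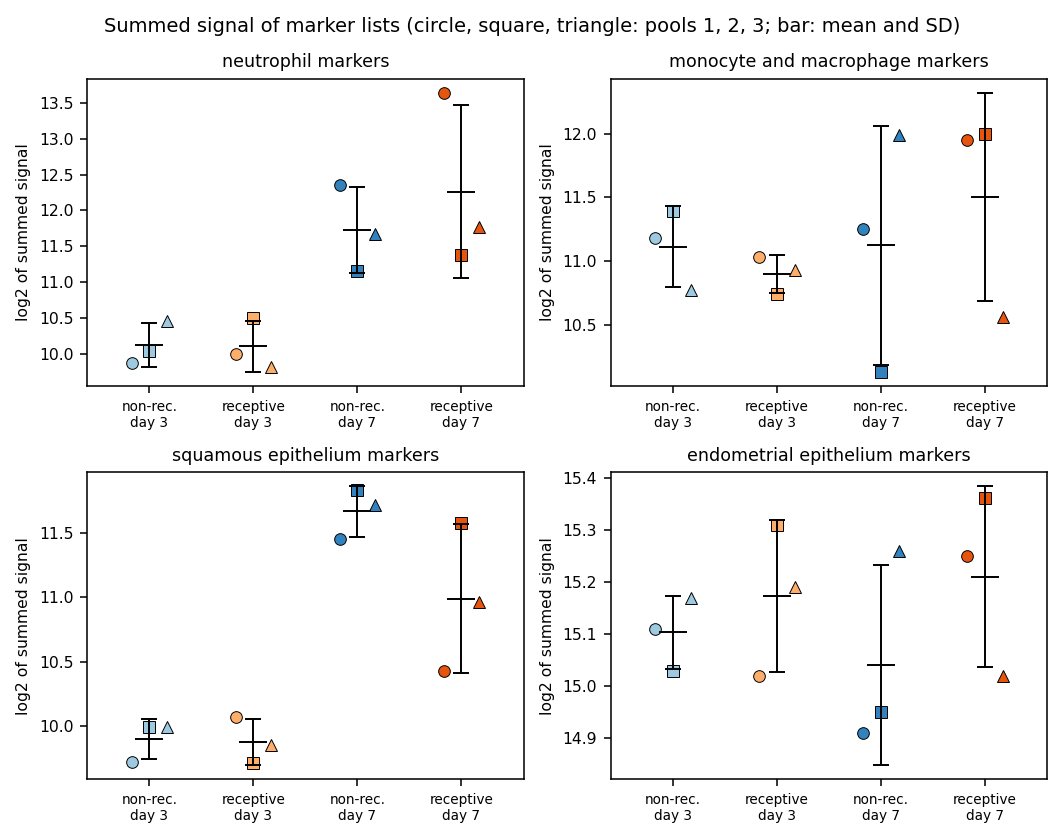
log2 of the summed signal of 4 marker lists (vertical axes, each with its own range that does not start at 0) in the 4 groups, with 1 point per pool and the mean and SD of 3 pools as bars. The summed neutrophil and squamous signals are higher on day 7 in all pools, that of macrophage markers is spread on day 7, and that of endometrial epithelium markers overlaps between the days.

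Of 16 stromal fibroblast markers, 5 were called as lower on day 7 and none as higher, where 9.44% of all probe sets were called as lower, among them FBLN1 (-1.54, limma adjusted p = 0.003), HOXA10 (-1.33, adjusted p = 0.0271), THY1 (-0.45, adjusted p = 0.0279) and COL3A1 (-1.73, adjusted p = 0.0297). The summed signal was 12.24 to 14.68 on day 3 and 11.79 to 13.16 on day 7. T and NK cell markers (4 of 17) and endothelial markers (4 of 13) had calls in the lower direction and none in the higher. None of 10 glial, melanocyte and adipocyte markers, the usual company of S100B, and none of 5 mast cell and eosinophil markers was called. Of 8 B and plasma cell markers, 9 smooth muscle markers and 6 red blood cell markers, 1 each was called as higher and 1 each as lower. The part of any of these cells in the S100 levels was not tested.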

How the data were processed

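The authors deposited 1 table of log2 signals, 1 column for each of the 12 RNA pools, from biotin-labelled cRNA made from 500 ng total RNA. Affymetrix Expression Console, PLIER and GCOS 1.1.1 appear in the submitters' processing notes, without their roles. How arrays were scaled to each other is not stated there, and the lowest deposited log2 value is 0. Values were used as deposited, and the number of arrays limits the precision.

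Of 24128 probe sets, 112 controls were left out. Gene symbols came from the platform annotation. 13292 probe sets had 1 symbol, 86 several and 10638 none, and genes were named from probe sets with exactly 1. All 10 members matched a RefSeq gene ID. No sequences were used, and the planned sequence features were not run.

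limma 3.58.1 (R 4.3.3) fitted a mean for each of the 4 groups over all 12 pools with eBayes, and 7 contrasts were adjusted by Benjamini-Hochberg over 24016 probe sets, two-sided. Intervals are 95% intervals of that fit. The code was tested on simulated data. Each of the 19 lists took the brightest probe set per gene, and at most 4 genes a list, those of smallest p, and a few fixed partners were named. Members and lists were chosen with earlier results of these data known. The main fit was planned without pool numbers. Over all probe sets, the deviations of same-numbered pools had mean correlations of 0.03, 0.01 and -0.04 for numbers 1, 2 and 3. The calgranulins of receptive endometrium did follow the pool number on both days, as given above, and a block with pool number was run as an alternative. Alternatives changed the normalization, low-signal filter, floor, variance model, array weights, block and pools in the fit.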

Additional observations from a re-analysis of the deposited data

How the results depend on the processing

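Between the days, averaged over receptivity, 7 to 9 S100 probe sets were called under the 8 alternatives that kept all pools and 5 to 7 when each pool was left out. The 4 calgranulin probe sets and S100A4 were called under all 20. Within receptive endometrium the 3 calls became 5 with a mean signal of at least 5, with trend and robust eBayes and with array quality weights, 1 with the replicate block and 0 with only the 2 groups compared; leaving out a pool gave 0 to 3. Within non-receptive endometrium the 2 calls became 1 with median centring, 5 with array weights, 1 with the replicate block and 0 with only the 2 groups compared; leaving out a pool gave 0 to 2. Under the block with pool number, 7 were still called between the days, and 4 of 12 pools correlated best with a pool of their own number. The cause of these differences was not tested. In the contrasts of receptivity and in the difference of the day changes, 0 were called under every alternative run.

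Some uncalled values changed sign. On day 3, receptive against non-receptive, leaving out pools moved S100A8 over -1.13 to 0.22, S100A9 over -1.09 to 0.63 (dimmer probe set) and -0.25 to 0.24 (brighter), and S100A12 over -0.79 to 0.92; the difference of day changes of S100A12 ran from -0.44 to 1.27. The day change of S100A13 ran from -0.07 to 0.20 on average, from -0.05 to 0.41 in receptive and from -0.24 to 0.18 in non-receptive endometrium. That of S100B ran from -0.66 to 0.19 in receptive endometrium and was 0.10 in non-receptive endometrium with array weights.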
